A study of Mus musculus with 2 samples.

Results

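The 28 genes described here encode enzymes and controllers of cholesterol and fatty acid synthesis. They were taken by symbol from the 31053 features of a gene expression table, each symbol matching a single feature, and lie on 15 chromosomes (GENCODE M21, GRCm38). They comprise 8 genes that lead from acetyl-CoA to squalene (Acat2, Hmgcs1, Mvk, Pmvk, Mvd, Idi1, Fdps and Fdft1), 10 genes that lead from squalene to cholesterol (Sqle, Lss, Cyp51, Tm7sf2, Msmo1, Nsdhl, Hsd17b7, Ebp, Sc5d and Dhcr7), 4 genes of control and transport (Srebf1, Srebf2, Insig1 and Stard4) and 6 fatty acid synthesis genes (Acly, Acaca, Fasn, Elovl6, Scd1 and Scd2). Cells came from mouse eye cups at postnatal day 0, after removal of cornea, lens and optic nerve, and were profiled by droplet single cell RNA sequencing of transcript 3′ ends. Control animals were Myrf fl/fl, that is, homozygous for a conditional allele of the transcription factor gene Myrf. Mutant animals were Rx>cre Myrf fl/fl, and carried in addition a Cre transgene active in the early eye field, which gives rise to both the neural retina and the retinal pigment epithelium (RPE). Control animals therefore carried the floxed allele but no Cre transgene. Each genotype was 1 library made from 3 pooled eye cups, so no test between genotypes was possible, and all 95% intervals below cover counting error only.

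Cholesterol is made from acetyl-CoA through mevalonate, farnesyl diphosphate and squalene, and squalene is closed into lanosterol and then trimmed and rearranged into cholesterol. The genes of the pathway share a regulator: when sterols are scarce, SREBP transcription factors (from Srebf1 and Srebf2) are released from the endoplasmic reticulum and activate them, and INSIG proteins hold SREBPs back when sterols are plentiful. The retina obtains cholesterol both by its own synthesis and by uptake from the blood across the RPE, the pigmented epithelium that lies between the photoreceptors and the choroid.

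Promoter sequences are shown for 3 genes on which the results below turn: Hmgcs1, the committed enzyme of the mevalonate branch, Cyp51, which had the lowest ratio among the sterol enzymes in RPE-like cells, and Insig1, the sterol-regulated brake on SREBP. RefSeq promoter windows (build GRCm38.p6, 250 bases before to 50 bases after the transcript start) were matched for 22 of the 28 genes, in 27 windows of 300 bases. Capitals mark the sterol regulatory element TCACNCCAC and the CCAAT box, searched on both strands, and sequences are given 5′ to 3′ on the strand of the gene. The windows lie at chr13:119690101-119690400 (plus strand, Hmgcs1), chr5:4104648-4104947 (minus strand, Cyp51) and chr5:28071162-28071461 (plus strand, Insig1).
Hmgcs1: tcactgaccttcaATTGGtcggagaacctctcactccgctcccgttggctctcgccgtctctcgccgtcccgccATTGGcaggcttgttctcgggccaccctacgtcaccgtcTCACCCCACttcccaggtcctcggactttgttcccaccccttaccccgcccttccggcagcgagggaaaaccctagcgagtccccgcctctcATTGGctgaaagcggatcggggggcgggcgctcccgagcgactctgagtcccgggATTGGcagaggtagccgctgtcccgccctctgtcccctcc
Cyp51: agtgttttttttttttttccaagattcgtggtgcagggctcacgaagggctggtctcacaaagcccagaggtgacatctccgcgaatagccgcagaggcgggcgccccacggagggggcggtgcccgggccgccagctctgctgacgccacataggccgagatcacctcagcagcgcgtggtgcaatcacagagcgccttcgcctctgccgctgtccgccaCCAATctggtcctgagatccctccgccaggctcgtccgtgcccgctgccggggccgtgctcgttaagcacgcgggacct
Insig1: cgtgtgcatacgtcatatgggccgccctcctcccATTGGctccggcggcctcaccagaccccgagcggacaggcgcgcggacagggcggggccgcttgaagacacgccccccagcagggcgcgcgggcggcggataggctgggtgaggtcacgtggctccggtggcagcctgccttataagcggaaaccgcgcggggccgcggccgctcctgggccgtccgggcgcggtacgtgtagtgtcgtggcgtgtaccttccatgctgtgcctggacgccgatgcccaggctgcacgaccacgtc
The 9-letter element occurred in the window of 1 of the 22 genes, Hmgcs1, where it began 137 bases before the transcript start, against 1.44% of the 27025 genes with a window. The CCAAT box occurred in at least 1 window of 19 of the 22 genes, against 41.1% of genes. The E-box CACGTG occurred in 4 of the 22 genes (Dhcr7, Hsd17b7, Insig1 and Sc5d), against 8.09% of genes. These are matches of letters, and a gene with several windows had more chances of a match.

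The control library held 14305 barcodes with 79017429 UMIs (unique molecular identifiers, which count captured transcripts), and the mutant library 12222 barcodes with 76272867 UMIs. After filtering, 12514 and 10851 cells were grouped into 35 clusters without use of the 28 genes, and 7 classes, named for their markers, held at least 100 cells in each library. The RPE-like class was a single cluster of 494 control and 202 mutant cells with 9 of 12 listed RPE markers, among them Pmel, Dct, Tyrp1 and Mitf. Within it the visual cycle genes Rlbp1 (812 against 336 counts per 1000000 UMIs, CPM) and Rdh5 (1105 against 485 CPM) were lower in the mutant library, and Rpe65 was at 3.71 CPM in control and at 0 UMIs in mutant. Lrat, another visual cycle gene, went the other way on few UMIs (2 and 17), as did Tyr, the tyrosinase of pigment synthesis (943 against 1171 CPM; log2 ratio 0.31, 0.24 to 0.39). Myrf, the targeted gene, stood at 230 CPM (743 UMIs) in control and 26.8 CPM (64 UMIs) in mutant RPE-like cells, a log2 ratio of −3.05. The 3′ tags may lie outside the deleted exons, whose place is not given in the sources used here. The libraries also differed in sex: of the kept cells, 893 in control and 7640 in mutant had Xist but no Y-linked UMI, and 6418 in control and 1520 in mutant had Y-linked UMIs but no Xist.

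In control eye cups the RPE-like cells had the highest level of 19 of the 28 genes among the 7 classes, for Lss and Hsd17b7 within counting error of the next class. Summed over the 18 sterol enzymes, control RPE-like cells held 2206 CPM (95% interval 2155 to 2258), retinal progenitor-like cells 1250 CPM, photoreceptor-like cells 1038 CPM, amacrine-like cells 1005 CPM, neurogenic-like cells 769 CPM, mesenchyme or pericyte-like cells 499 CPM and endothelial-like cells 488 CPM. The intervals of photoreceptor-like (1007 to 1070 CPM) and amacrine-like cells (974 to 1037 CPM) overlapped, as did those of mesenchyme or pericyte-like (488 to 510 CPM) and endothelial-like cells (464 to 512 CPM). Red blood-like cells, a class with fewer than 100 cells in the mutant library, gave 125 CPM in control and 180 CPM in mutant. The 6 fatty acid enzymes followed with 1022 CPM in RPE-like cells (988 to 1058), 526 CPM in retinal progenitor-like cells and 210 CPM in endothelial-like cells.

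**Figure D1:**
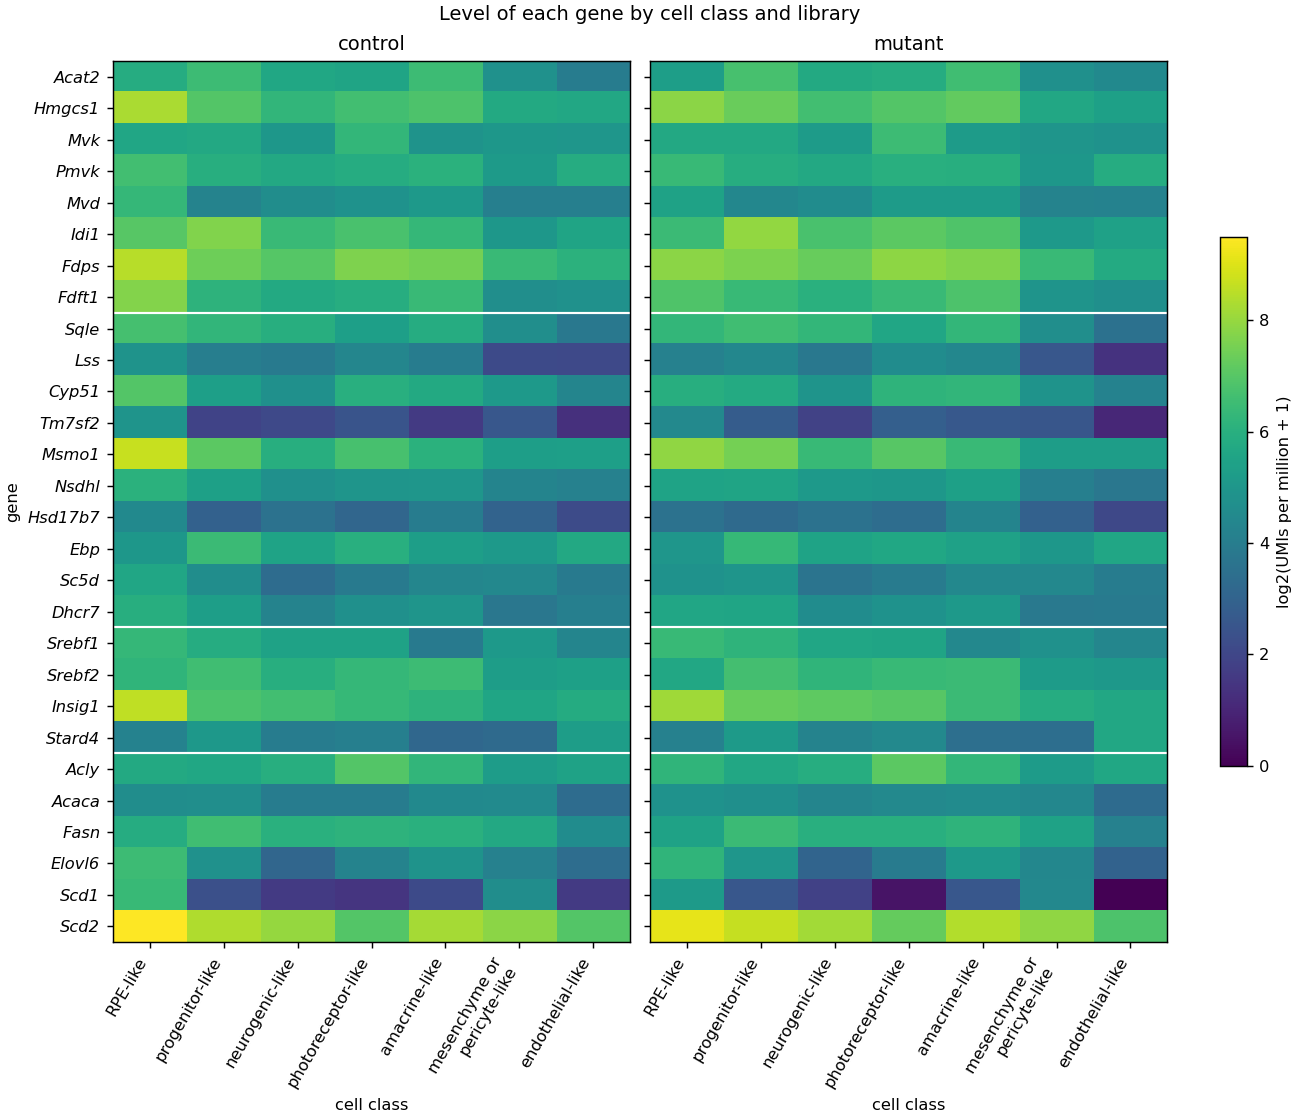
Level of each of the 28 genes (rows, grouped by role with white lines) in the 7 cell classes (columns) of the control and mutant libraries, as log2 of CPM with 1 added. The RPE-like column is brightest for 19 genes in control and for 13 in mutant.

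The order of classes differed from gene to gene among the sterol enzymes, 14 of which were highest in control RPE-like cells. Hmgcs1 was at 308 CPM in control RPE-like cells, 124 CPM in retinal progenitor-like and 50.7 CPM in endothelial-like cells, the last of which overlapped with mesenchyme or pericyte-like cells at 53.2 CPM. Msmo1, the C4-methyl sterol oxidase, ran from 410 CPM in RPE-like cells down to 38.4 CPM in mesenchyme or pericyte-like cells. Scd1, a stearoyl-CoA desaturase that makes monounsaturated fatty acids, was the most uneven, with 82.3 CPM in RPE-like cells, 24.0 CPM in mesenchyme or pericyte-like cells and no more than 3.98 CPM in the other 5 classes. Across the 7 classes, levels of Nsdhl (Pearson's r = 0.99 in control and 0.97 in mutant), Hmgcs1 (0.98 and 0.96) and Dhcr7 (0.97 and 0.96) were the closest to the sum of the other sterol enzymes on a log2 scale, and those of Ebp (−0.0018 and 0.28) and Stard4 (0.03 and −0.11) among the furthest. These are descriptions over 7 classes that share their library, and carry no p.

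Exceptions to the RPE-like maximum fell at particular steps. Acat2 (cytosolic acetoacetyl-CoA thiolase, 89.1 CPM), Idi1 (isopentenyl diphosphate isomerase, 206 CPM), Ebp (sterol isomerase, 86.8 CPM), Srebf2 (95.7 CPM), Acaca (24.8 CPM) and Fasn (95.2 CPM) were highest in control retinal progenitor-like cells. Acat2 and Srebf2 were within counting error of amacrine-like cells (89.1 and 90.1 CPM), and Acaca of RPE-like cells. Mvk (mevalonate kinase, 76.7 CPM) and Acly (ATP citrate lyase, which supplies cytosolic acetyl-CoA, 123 CPM) were highest in photoreceptor-like cells. Stard4, a carrier of cholesterol between membranes, was highest in endothelial-like cells (38.0 CPM), within counting error of retinal progenitor-like cells (32.7 CPM). Ebp was the only one of the 28 genes with its lowest level in RPE-like cells, at 31.9 CPM in control and 30.6 CPM in mutant. In both libraries this was within counting error of mesenchyme or pericyte-like cells.

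In the mutant library the RPE-like cells led in 13 of the 28 genes rather than 19, and the leading class was the same in both libraries for 20 genes. Of those 13, the intervals of Mvd, Fdft1, Dhcr7, Srebf1 and Acaca overlapped that of the next class. Sqle was now highest in retinal progenitor-like cells and Hsd17b7 in amacrine-like cells, each beyond the counting interval of the next class. For Cyp51 (amacrine-like), Fdps and Lss (photoreceptor-like), and Nsdhl and Sc5d (retinal progenitor-like) the interval of the leading class overlapped that of the next. Acaca in RPE-like and retinal progenitor-like cells was not told apart in either library. The summed sterol enzymes reached 1451 CPM (1403 to 1500) in mutant RPE-like cells and 1484 CPM (1469 to 1498) in mutant retinal progenitor-like cells, with overlapping intervals.

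**Figure D2:**
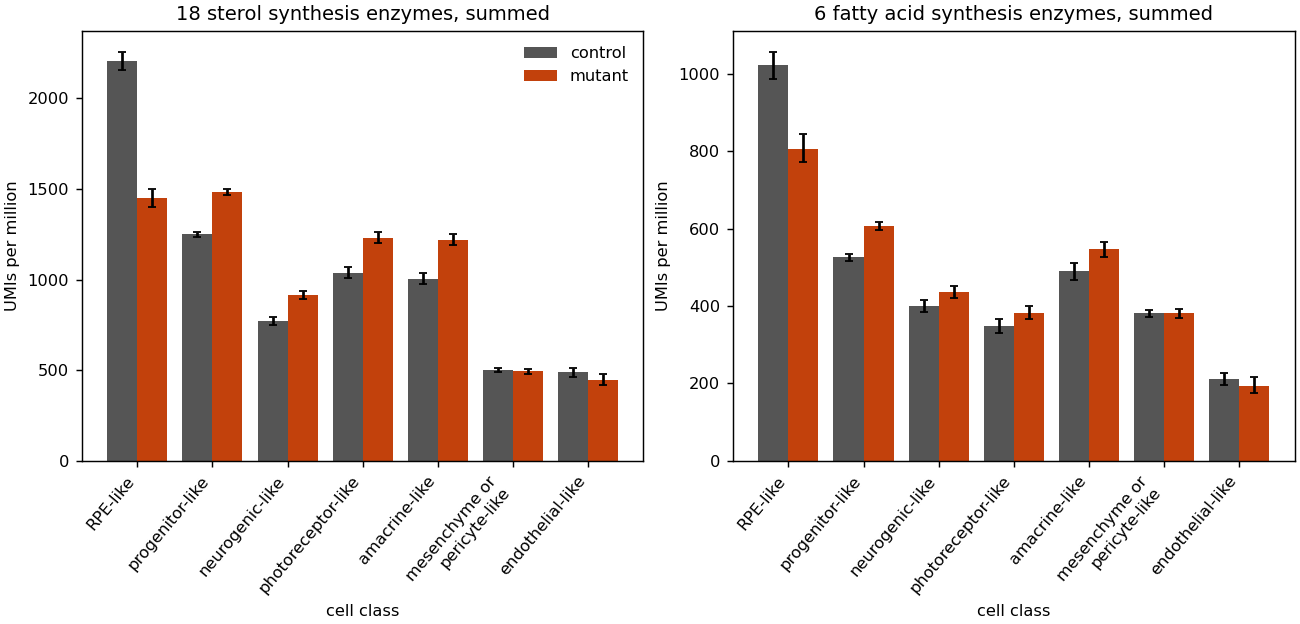
Summed CPM of the 18 sterol synthesis enzymes and of the 6 fatty acid synthesis enzymes in 7 cell classes, with 1 control and 1 mutant library each; error bars are exact Poisson 95% intervals. The sterol sum drops from 2206 to 1451 in RPE-like cells and is higher in mutant than control in the amacrine-like, photoreceptor-like, neurogenic-like and retinal progenitor-like classes.

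The comparison of genotypes within RPE-like cells asks how the pathway stood in the class that held most Myrf transcript in control. Of the 28 genes, 24 had a log2 ratio of mutant over control below 0, 19 had an interval wholly below 0 and 1 (Acly) had an interval wholly above 0. Over all genes with at least 20 UMIs 51.5% had a ratio below 0, 14.4% an interval below 0 and 12.8% an interval above 0, though intervals are narrower for genes with more UMIs. At a fold of at least 1.5, 9 genes were lower and 0 were higher, where 12.2% of all 11092 genes with at least 20 UMIs were that much lower and 7.44% that much higher. Over 17 alternatives the count of lower genes ran from 4 to 14 and that of higher genes from 0 to 2. The median log2 ratio of the 28 genes was −0.45, and that of all genes −0.01. The sterol sum had a log2 ratio of −0.60 (−0.66 to −0.55), and the fatty acid sum, from 1022 to 807 CPM, one of −0.34 (−0.42 to −0.26). These sums rest on 7127 control and 3460 mutant UMIs for the sterol enzymes, among 3230290 and 2384307 UMIs of the class.

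**Figure D3:**
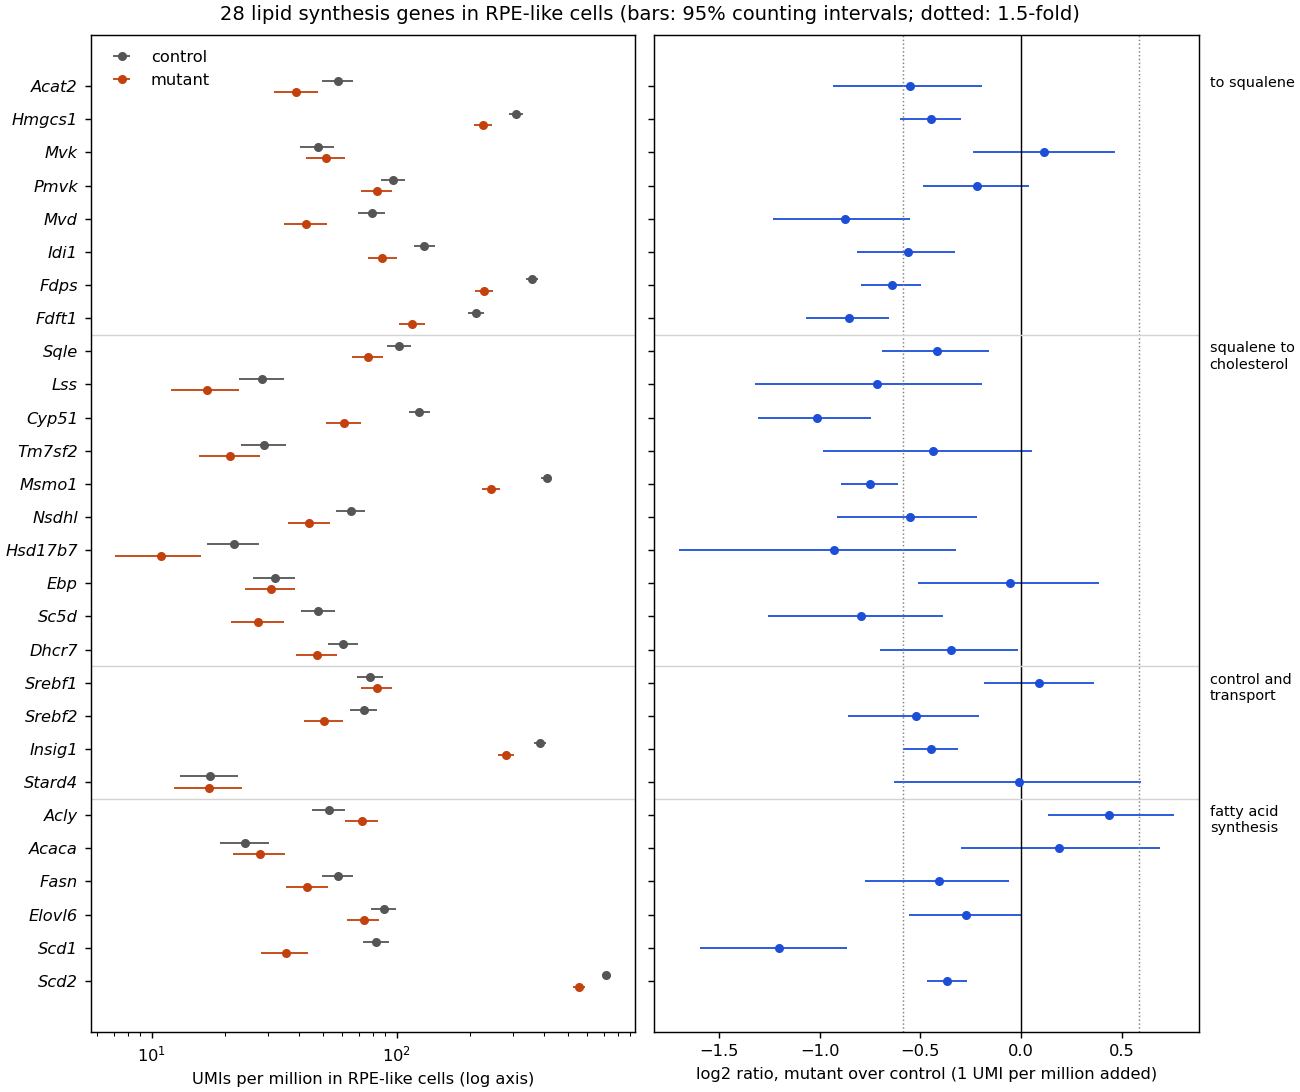
Left, CPM (log axis) of each gene in control and mutant RPE-like cells with exact Poisson 95% intervals; right, log2 ratio of mutant over control with the exact conditional interval of the plain ratio, 1 library per genotype. Of the 28 points, 24 lie left of 0, and Cyp51 and Scd1 lie furthest left.

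Among the 8 genes leading to squalene, 7 had a ratio below 0 and 3 passed the 1.5-fold mark. Fdft1, squalene synthase, which makes the committed precursor of sterols, went from 211 CPM (680 UMIs) in control to 116 CPM (276 UMIs) in mutant, a log2 ratio of −0.86 (−1.07 to −0.66). Mvd, mevalonate diphosphate decarboxylase, went from 79.2 to 42.8 CPM (−0.87, −1.24 to −0.55), and Fdps, farnesyl diphosphate synthase, from 357 to 228 CPM (−0.64, −0.79 to −0.50). For these 3 genes the control and mutant intervals of the level did not overlap. Idi1 followed with 130 against 87.7 CPM (−0.56, −0.82 to −0.33) and Acat2 with 57.6 against 39.0 CPM (−0.55, −0.94 to −0.20). Hmgcs1, HMG-CoA synthase, was at 308 CPM (289 to 327) in control and 225 CPM (207 to 245) in mutant, a ratio of −0.45 (−0.60 to −0.30). The 2 kinases in the middle of the branch stood apart: Pmvk, phosphomevalonate kinase, had 96.9 and 83.0 CPM (−0.22, −0.49 to 0.04), and Mvk 47.7 and 51.6 CPM (0.11, −0.24 to 0.47). Acat2 has a close copy, Acat3, next to it on chromosome 17, and Fdps overlaps a predicted gene on its own strand, so their counts are less certain.

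All 10 genes from squalene to cholesterol had ratios below 0, and 5 passed 1.5-fold. Cyp51, lanosterol 14α-demethylase, went from 124 CPM (112 to 137) to 60.8 CPM (51.3 to 71.6), a log2 ratio of −1.01 (−1.31 to −0.75) and thus 2.04-fold lower. Its ratio stayed below 0 in 16 of 17 alternatives, and was 0.099 with each cell thinned to 1000 UMIs. Msmo1 went from 410 CPM (1323 UMIs) to 243 CPM (579 UMIs), a ratio of −0.75 (−0.90 to −0.61). Both had levels in control that lay well above the mutant interval. Sc5d, lathosterol oxidase, had 48.0 and 27.3 CPM (−0.79, −1.26 to −0.39), Lss, lanosterol synthase, 28.2 and 16.8 CPM (−0.71, −1.32 to −0.20), and Hsd17b7, a 3-ketosteroid reductase, 21.7 and 10.9 CPM (−0.93, −1.70 to −0.32), the last on only 70 and 26 UMIs. Nsdhl, which removes the C4 carboxyl group, had 65.0 and 44.0 CPM (−0.55, −0.91 to −0.22), Sqle, squalene epoxidase, 102 and 76.3 CPM (−0.42, −0.69 to −0.16), and Dhcr7, which reduces 7-dehydrocholesterol to cholesterol, 60.7 and 47.4 CPM (−0.35, −0.70 to −0.02). The intervals of Tm7sf2, a sterol C14 reductase (28.8 and 21.0 CPM; −0.44, −0.98 to 0.05), and of Ebp (−0.06, −0.51 to 0.39) included 0. Tm7sf2 shares part of its locus with Vps51 on the same strand, so its UMIs are less certain. Nsdhl and Ebp are the 2 genes of the 28 that lie on the X chromosome.

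Of the 4 control and transport genes, Insig1 had 384 CPM (363 to 406) in control and 281 CPM (260 to 303) in mutant RPE-like cells, a log2 ratio of −0.45 (−0.59 to −0.31). Srebf2, whose product is the main activator of sterol genes, had 73.4 and 50.7 CPM (−0.52, −0.86 to −0.21). Srebf1, whose product acts more on fatty acid genes, had 78.0 and 83.0 CPM (0.09, −0.19 to 0.36), and Stard4 17.3 and 17.2 CPM (−0.01, −0.63 to 0.60). Thus the intervals of Srebf2 and Insig1 lay below 0, and those of Srebf1 and Stard4 included 0. The sign of the latter pair depended on the processing: Srebf1 was below 0 in 5 of 17 alternatives, down to −1.47, and Stard4 above 0 in 6 of 13. None of the 4 reached a fold of 1.5.

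The fatty acid genes were the most divided group. Scd1 had the lowest ratio of all 28 genes, from 82.3 CPM (266 UMIs) to 35.2 CPM (84 UMIs), a log2 ratio of −1.20 (−1.60 to −0.87), and was the only fatty acid gene past 1.5-fold. Its relative Scd2 went from 716 CPM (687 to 746) to 555 CPM (526 to 586), a smaller ratio of −0.37 (−0.47 to −0.27). Fasn, fatty acid synthase, had 57.6 and 43.2 CPM (−0.41, −0.78 to −0.06), and Elovl6, the elongase of palmitate, 88.8 and 73.4 CPM (−0.27, −0.56 to 0.00061). Acly, at the entry of the pathway, was higher in mutant, with 72.1 against 52.9 CPM (0.44, 0.13 to 0.76), and Acaca, acetyl-CoA carboxylase, had 27.7 against 24.1 CPM (0.19, −0.30 to 0.69). Without Scd2, which supplies most UMIs of the sum, the other 5 fatty acid enzymes together had a ratio of −0.28 (−0.43 to −0.13), and without Scd1 as well the other 4 had one of −0.05 (−0.21 to 0.12).

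Depth differed between the genotypes in this class, with a median of 2416 UMIs per cell in control and 10618 in mutant. In the deepest cells, over 8000 UMIs, the sterol sum was 2320 CPM in 152 control cells and 1457 CPM in 116 mutant cells, a log2 ratio of −0.67 (−0.73 to −0.61). In cells of over 4000 to 8000 UMIs it was −0.55 (−0.80 to −0.30) from 43 and 24 cells. In cells of up to 4000 UMIs it was −0.18 (−0.44 to 0.07), with 1777 and 1567 CPM from 299 and 62 cells, so a difference was not detectable at this depth. In those shallow cells 22 of the 28 genes had at least 20 UMIs, of which 4 were at least 1.5-fold lower and 2 higher, where 26.3% of all genes were that much lower and 14.8% higher, so the share of lower genes was not above that of all genes. Hmgcs1, Mvd, Fdft1, Dhcr7 and Elovl6, which lay below 0 over all RPE-like cells, had ratios above 0 there. The fatty acid sum was at −0.44 (−0.89 to −0.01), −0.57 (−1.01 to −0.15) and −0.40 (−0.49 to −0.32) from the shallowest to the deepest cells.

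The sterol ratio was below 0 within cells of either sex. The ratio of the sterol sum was −0.71 (−0.80 to −0.63) in RPE-like cells with Xist and without Y-linked UMIs (83 control and 81 mutant cells). It was −0.75 (−0.87 to −0.62) in those with Y-linked UMIs and no Xist (127 and 36 cells). Both subsets were deep, with control and mutant medians of 9860 and 17409 UMIs for Xist and 10369 and 13582 for Y-linked. They are therefore not separate from the split by depth. Cells with neither (263 and 80) were shallow, with medians of 1374 and 2668.5 UMIs, and gave −0.25 (−0.40 to −0.10). The X-linked Nsdhl had −0.52 (−1.04 to −0.03) in Xist-positive and −0.55 (−1.34 to 0.16) in Y-positive cells. For Ebp the corresponding ratios were 0.29 (−0.44 to 1.07) and −0.59 (−1.65 to 0.31). Scd2 differed more between these subsets, with −0.62 (−0.77 to −0.48) and −0.11 (−0.29 to 0.08).

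RNA of other cell types also differed between the libraries within the RPE-like class. The 12 mesenchyme or pericyte markers summed to 1687 CPM in control and 188 CPM in mutant RPE-like cells (Foxc2 and Rgs5 at 0 in mutant), against 40016 CPM in control cells of their own class. The 8 lens markers summed to 254 and 38.2 CPM, with 4 of them at 0 in mutant, and the 10 retinal progenitor markers to 1638 and 1865 CPM. The 12 RPE markers themselves summed to 29019 and 19306 CPM. Among 12 dissociation response genes, which tissue handling can induce, 1 was at least 1.5-fold lower (Atf3, −1.73) and 2 higher (Fosb, 1.58, and Junb, 1.10). Of all genes 12.2% were that much lower and 7.44% higher. Jund had −0.58, and the median of the list was 0.43. The part of these differences in the lipid gene ratios was not tested.

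**Figure D4:**
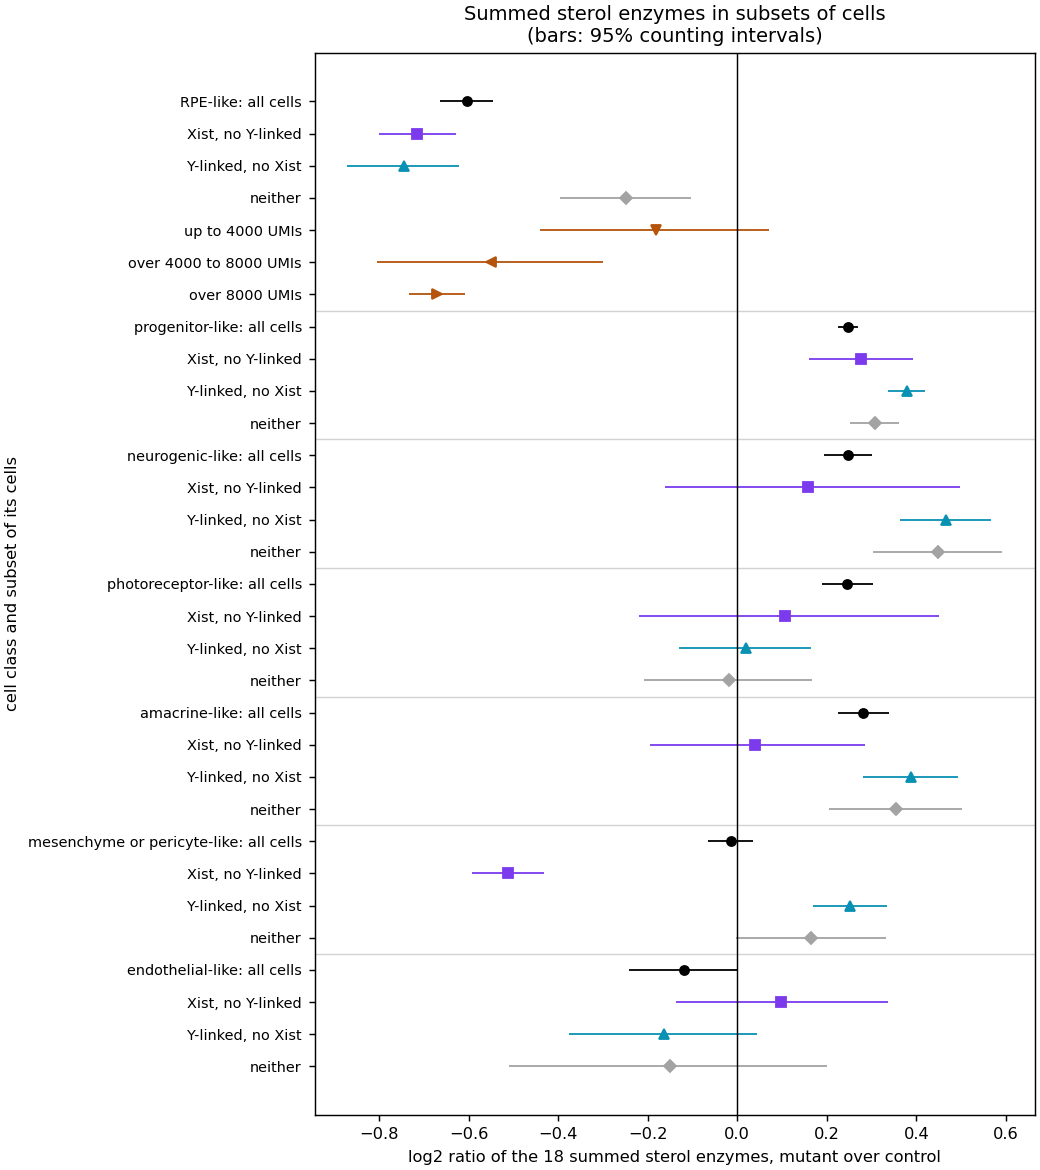
Log2 ratio of mutant over control for the 18 summed sterol enzymes in all cells of each class and in subsets by Xist and Y-linked UMIs and, for RPE-like cells, by UMIs per cell; bars are exact conditional 95% intervals, 1 library per genotype. All RPE-like subsets lie left of 0, the shallowest with an interval that includes 0, and the Xist and Y-linked subsets of mesenchyme or pericyte-like cells lie on opposite sides of 0.

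In the neural retina the sterol sum had a ratio of the opposite sign. Retinal progenitor-like cells were 5275 in control and 5332 in mutant. Their sterol sum went from 1250 CPM (1235 to 1264) to 1484 CPM, a log2 ratio of 0.25 (0.23 to 0.27). The rise was uneven over the clusters of the class. It ran from 941 to 1338 CPM in 1 cluster. Intervals overlapped in another, at 1277 (1243 to 1311) and 1312 CPM (1282 to 1342), and in a shallow one, at 1083 and 1105 CPM. Of the 28 genes, 18 had intervals above 0, beside 20.5% of all genes. Insig1 had 111 and 156 CPM (0.48, 0.42 to 0.56), Cyp51 40.4 and 55.4 CPM (0.45, 0.34 to 0.58), Msmo1 134 and 181 CPM (0.43, 0.37 to 0.50), Hmgcs1 124 and 158 CPM (0.34, 0.28 to 0.42) and Scd2 326 and 406 CPM (0.32, 0.28 to 0.36). Each of these genes thus lay below 0 in RPE-like and above 0 in progenitor-like cells. Ebp (−0.09, −0.18 to −0.00055) and Fasn (−0.11, −0.20 to −0.03) had intervals below 0, beside 12.5% of all genes. These differences were small: Tm7sf2 was the only gene at least 1.5-fold higher (2.76 and 5.74 CPM; 0.84), and 0 were lower, where 1.24% of all genes were higher and 2.47% lower by that fold. The median was 0.24 over the 28 genes and 0.04 over all genes.

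The other 3 neural classes had sterol sums in the same direction. The log2 ratio of the sum was 0.25 (0.19 to 0.30) in neurogenic-like cells, 0.25 (0.19 to 0.30) in photoreceptor-like cells and 0.28 (0.22 to 0.34) in amacrine-like cells, the last turning to −0.58 in cells of up to 2000 UMIs. The median over the genes with at least 20 UMIs was 0.19 in neurogenic-like cells, 0.25 in photoreceptor-like cells (27 genes, Scd1 being too sparse) and 0.28 in amacrine-like cells. The first 2 medians turned below 0 in 1 of 16 alternatives each, to −0.059 in Xist-positive neurogenic-like cells and to −0.16 in photoreceptor-like cells of up to 2000 UMIs. In neurogenic-like cells 0 genes reached 1.5-fold in either direction, where 3.08% of all genes were higher and 2.66% lower. In photoreceptor-like cells Insig1 alone was at least 1.5-fold higher (81.2 and 128 CPM; 0.65, 0.46 to 0.86) and 0 were lower, beside 3.37% and 3.74% of all genes. In amacrine-like cells Tm7sf2 alone was higher (8 and 28 UMIs; 1.00, 0.15 to 2.66) and 0 were lower, beside 4.2% and 3.05% of all genes. Fdft1 in photoreceptor-like cells (58.7 and 85.0 CPM; 0.53) and Idi1 in amacrine-like cells (79.3 and 116 CPM; 0.55) came next among the sterol enzymes. In all, 15 of the 27 genes with at least 20 UMIs in each of the 5 classes had a ratio below 0 in RPE-like cells and above 0 in all 4 neural classes, beside 10.2% of all 9714 such genes: Acat2, Cyp51, Dhcr7, Fdft1, Fdps, Hmgcs1, Hsd17b7, Idi1, Insig1, Msmo1, Nsdhl, Sc5d, Scd2, Sqle and Stard4. Stard4 counts among them with a ratio of −0.01 in RPE-like cells, of which the interval included 0.

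**Figure D5:**
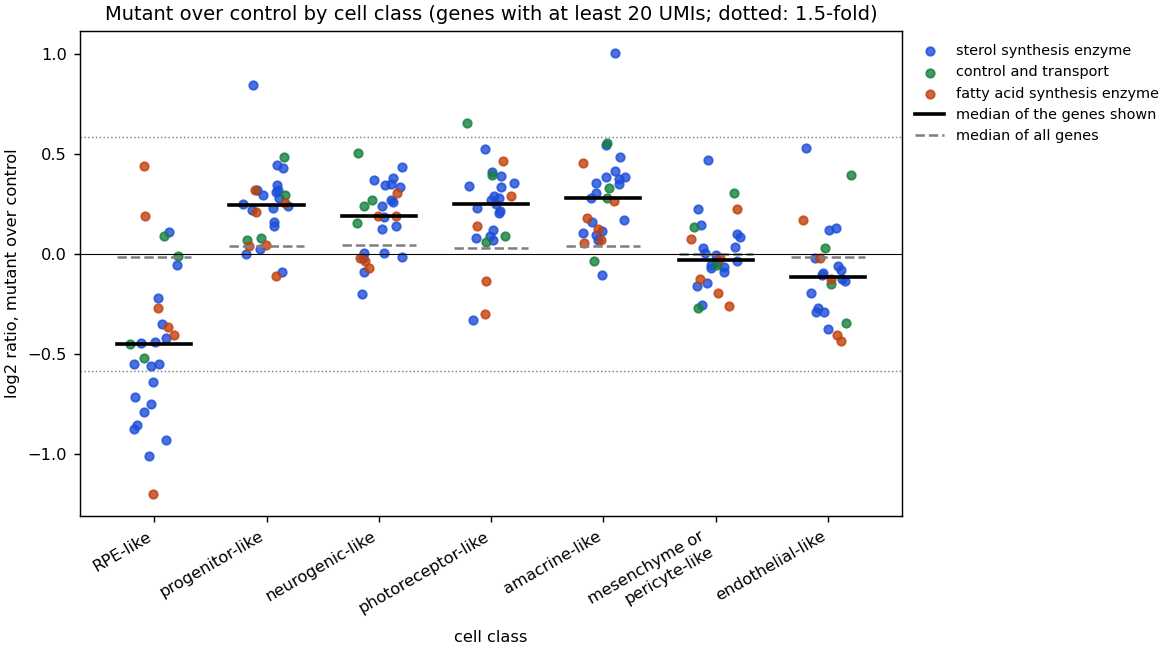
Log2 ratio of mutant over control for each gene with at least 20 UMIs (points, coloured by role) in the 7 cell classes, 1 library per genotype; black bars are the median of the genes shown and dashed grey bars the median of all genes. The median is −0.45 in RPE-like cells, between 0.19 and 0.28 in the 4 neural classes, −0.12 in endothelial-like and −0.03 in mesenchyme or pericyte-like cells.

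Sex and genotype were nearly confounded in the neural classes, where 1.71% to 3.26% of control cells but 71.9% to 79.1% of mutant cells had Xist and no Y-linked UMI. Within retinal progenitor-like cells the sterol ratio was 0.28 (0.16 to 0.39) in the Xist subset (130 and 3833 cells) and 0.38 (0.34 to 0.42) in the Y-linked subset (2758 and 722 cells). Neurogenic-like cells gave 0.16 (−0.16 to 0.50) and 0.47 (0.36 to 0.57), and amacrine-like cells 0.04 (−0.19 to 0.28) and 0.39 (0.28 to 0.49), the Xist subsets holding only 25 and 24 control cells. In photoreceptor-like cells the Y-linked subset (689 and 119 cells) gave 0.02 (−0.13 to 0.16), below the class ratio of 0.25. The Xist subset gave 0.11 (−0.22 to 0.45) on only 20 control cells, an interval that included both 0 and the class ratio. The difference in photoreceptor-like cells therefore cannot be told apart from that in sex.

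Mesenchyme or pericyte-like cells, 1452 in control and 914 in mutant, do not arise from the Rx-positive eye field and had a sterol ratio of −0.01 (−0.06 to 0.04) and a median of −0.03. At 1.5-fold 0 of the 28 genes were lower and 0 higher, beside 1.36% and 1.82% of all genes. Insig1 (46.8 and 58.1 CPM; 0.31, 0.16 to 0.47) had an interval above 0 here too, as did Fdft1 (0.22), Lss (0.47) and Scd2 (0.07), and Cyp51 (−0.25), Srebf1 (−0.27) and Fasn (−0.26) had intervals below 0, which is 4 and 3 genes beside 9.19% and 8.95% of all genes. The class pooled clusters with ratios on both sides of 0: the sterol sum went from 508 to 640 CPM and from 381 to 484 CPM in 2 clusters, and from 763 to 637 CPM and from 339 to 275 CPM in another 2, each pair with intervals that did not overlap. The subsets by sex had opposite signs, with −0.51 (−0.59 to −0.43) in Xist-positive cells (374 and 517) and 0.25 (0.17 to 0.33) in Y-positive cells (765 and 240). Endothelial-like cells, 437 in control and 170 in mutant, had a sterol ratio of −0.12 (−0.24 to 0.00024) and a median of −0.12 over 24 genes, of which 0 were lower and 0 higher by 1.5-fold, beside 8.39% and 3.78% of all genes. Neither direction held throughout: over 16 alternatives the endothelial sterol ratio ran from −0.16 to 0.61, with 12 below 0, and the mesenchyme or pericyte sterol ratio from −1.30 to 0.25, with 13 below 0. The median in endothelial-like cells ran from −1.59 to 0.19.

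Other lipid lists in RPE-like cells are set beside the shares of all genes that were at least 1.5-fold lower (12.2%) or higher (7.44%). Of 23 measured genes of other lipid synthesis and the SREBP pathway, 3 were lower and 0 higher by that fold. That share of lower genes was near that of all genes. However, 10 had an interval wholly below 0 and 1 wholly above 0, beside 14.4% and 12.8% of all genes. The median of the list was −0.28, with 16 ratios below 0 and 7 above. The largest ratios in this list were those of Elovl1, which extends saturated fatty acids to very long chains (96.0 and 44.9 CPM; −1.08, −1.43 to −0.78), Lpin1, a phosphatidate phosphatase (28.2 and 15.9 CPM; −0.78, −1.41 to −0.26), Me1, the malic enzyme that supplies NADPH (184 and 119 CPM; −0.63, −0.85 to −0.43) and Lbr, another sterol C14 reductase (23.8 and 15.9 CPM; −0.55, −1.18 to −0.0022). All 4 were lower in the mutant library, Lbr with an interval that ended just below 0. Of 15 genes of cholesterol uptake, storage and efflux, 2 were lower and 2 higher by 1.5-fold, again near the shares of all genes. Intervals lay wholly below 0 for 4 of them and wholly above 0 for 4, and the median was −0.19. Osbp, an oxysterol binding protein, had 31.6 and 16.4 CPM (−0.91, −1.52 to −0.40), Lipa, the lysosomal lipase that frees cholesterol from its esters, 98.1 and 152 CPM (0.63, 0.41 to 0.86), Mylip, which marks lipoprotein receptors for degradation, 8.05 and 14.3 CPM (0.75, 0.05 to 1.62), and Cav1 only 16 and 4 UMIs (−1.15, −3.60 to 0.07). Apoe, the main lipid carrier of the tissue, had 7550 and 7712 CPM (0.03, 0.0030 to 0.06).

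Fatty acid oxidation genes, 14 measured, had a median of 0.16 in RPE-like cells. By 1.5-fold 2 were lower and 1 higher, also near the shares of all genes. Intervals lay wholly below 0 for 3 and wholly above 0 for 5. Acadm, the medium-chain acyl-CoA dehydrogenase, was higher (71.2 and 125 CPM; 0.80, 0.55 to 1.06), as was Acadvl, which acts on very long chains (52.3 and 75.1 CPM; 0.51, 0.21 to 0.83).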

How the data were processed

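Deposited values were raw UMI counts per gene and barcode of 2 libraries. The authors made these counts with Cell Ranger (version 7.1.0 per the submitters' notes, 3.1.0 in the matrix headers) on mm10; the annotation is not given in the sources used here. Barcodes with at least 200 genes and at most 15% mitochondrial UMIs were kept. The authors' stated limit of 2000 UMIs would drop 80.2% and 92.1% of barcodes and was tried only as an alternative. Predicted doublets (Scrublet in scanpy 1.11.5) were removed at 0.8% per 1000 barcodes, 1617 in control and 1176 in mutant, since its own threshold marked 0% and 6.14%. The libraries shared 59 barcodes. Cells were integrated and clustered in Seurat 5.3.0 (30 components, resolution 1) on 1966 variable genes without the lipid, sex-linked and pigment genes. A cluster took a class name from at least 3 markers that made up at least 50% of its list. UMIs were summed per class and library and scaled to 1000000 UMIs of the class (CPM). Ratios are log2 of mutant over control with 1 CPM added, summed lists without it. Intervals are exact Poisson for levels and conditional for the plain ratio. Gene positions followed GENCODE M21 (GRCm38). With 1 library per genotype no test was run. All 28 genes were named, Myrf as the label check, and the 4 largest ratios of each other list, with Apoe and 5 RPE markers chosen after their values were seen. Genes and lists were chosen with earlier results of these data known. Ratios were checked on simulated data, and 17 alternatives were run. Some genes that these rules name are not reported here.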

Additional observations from a re-analysis of the deposited data

Results flagged for a closer look

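Summed sterol enzymes had opposite directions in RPE-like cells (log2 ratio −0.60) and in 4 neural classes: amacrine-like (0.28), photoreceptor-like (0.25), neurogenic-like (0.25) and retinal progenitor-like (0.25). The ratio in RPE-like cells minus that in each class was −0.89, −0.85, −0.85 and −0.85 on the log2 scale, in that order. With 1 library per genotype this difference between classes was not tested. In photoreceptor-like cells the ratio was 0.11 in Xist-positive and 0.02 in Y-positive cells and −0.02 in those with neither, and in amacrine-like cells it was −0.58 in cells of up to 2000 UMIs.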

How the results depend on the processing

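In RPE-like cells the median and both sums stayed below 0 under 17 alternatives. With up to 2000 UMIs per cell the median was −0.75 over the 12 genes with enough UMIs, the sterol sum −0.30 and the fatty acid sum −0.18, with Hmgcs1 at 0.034, Fasn at 0.42 and the amacrine-like sterol sum at −0.58. Thinned to 1000 UMIs per cell, the median was −0.22, the sums −0.22 and −0.54, Hmgcs1 0.032 and Cyp51 0.099. In that setting 1 of 21 genes was higher, beside 12.4% of all genes. With cells weighted equally the sterol sum was −0.40, Lss 0.17, Dhcr7 1.01 and 2 genes were higher, beside 13.8% of all genes. Up to 4000 UMIs, 4 of 22 genes were lower and 2 higher, beside 26.3% and 14.8% of all genes, the sums were −0.18 and −0.44, Hmgcs1 0.052, Mvd 0.22, Fdft1 0.24 and Dhcr7 2.10. Over 8000 UMIs the sterol sum was −0.67. With at most 5% mitochondrial UMIs the fatty acid sum was −0.16 and 1 gene was higher, beside 10.99% of all genes. Xist-positive cells gave 14 lower genes (13.8% of all genes) and sums of −0.71 and −0.57. Y-positive cells gave 14 lower genes (19.0%), sums of −0.75 and −0.18 and Acly at −0.090. A marker gate gave a sterol sum of −0.54. Chosen after seeing the data, cells of over 4000 to 8000 UMIs gave a fatty acid sum of −0.57 and cells with neither sex-linked RNA a sterol sum of −0.25. The causes were not tested. No paired analysis was possible because each genotype is 1 library and the results come from no test. Depth limits genes with few UMIs, such as Hsd17b7 (70 and 26) and Stard4 (56 and 41).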

Other observations

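Classes with fewer than 100 cells in a library gave values only. The summed sterol enzymes were at 1108 CPM (1051 to 1168) in 134 control and 945 CPM (881 to 1013) in 68 mutant surface epithelium-like cells. In that class they were thus lower in mutant, as in RPE-like cells, with intervals that did not overlap. Muscle-like cells went the other way, with 385 CPM (344 to 430) and 512 CPM (457 to 572). White blood-like cells had 552 CPM (518 to 589) and 481 CPM (430 to 536), and astrocyte-like cells 675 and 647 CPM with overlapping intervals. Schwann or glia-like cells had 635 CPM (497 to 799) in 21 control cells and 418 CPM (316 to 543) in 20 mutant cells. The 68 lens-like cells, all from the control library, had 417 CPM (300 to 566). A cluster of 30 control and 18 mutant cells that held 8 of 8 melanocyte markers, and was left unnamed because pigment genes shared with the RPE list led it, had 927 CPM (849 to 1010) and 958 CPM (855 to 1069).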
